A study of Mus musculus with 8 samples.

Results

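The epidermal kallikreins and their inhibitor were followed here as a set of 9 genes out of 23358 in the deposited table. They were the 8 kallikrein-related peptidase genes known from the epidermis, *Klk5*, *Klk6*, *Klk7*, *Klk8*, *Klk10*, *Klk11*, *Klk13* and *Klk14*, and *Spink5*. The genes were chosen by name and all 9 were found in the table. RNA-seq was done on the cervical loop (CL), the epithelial niche from which the mandibular incisor of the mouse keeps growing, in *Med1* cKO and littermate Ctrl mice at 4 weeks of age. The head of the loop (CLH) is the part with the dental epithelial stem cells, and the tail (CLT) is the part with their progeny. In cKO mice, Cre recombinase driven by the *Krt14* promoter removes the floxed exons 8 to 10 of *Med1* from *Krt14* expressing epithelia, and Ctrl mice were littermates without Cre, all on a C57BL/6 background. *Krt14* is also active in skin and oral epithelium, mesenchymal cells keep *Med1*, and CL tissues were pooled within a group. The 4 groups, Ctrl CLH, cKO CLH, Ctrl CLT and cKO CLT, held 2 libraries each.

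Kallikrein-related peptidases are secreted serine proteases that are made as inactive precursors. In the skin they are released by the uppermost living keratinocytes and cut the corneodesmosomes that hold dead cells together, so that the surface can shed, while LEKTI, the product of *Spink5*, holds them in check. Loss of *SPINK5* in humans causes Netherton syndrome, in which proteolysis is unchecked and the skin barrier fails. In a normal incisor the best known kallikrein is *Klk4*, which ameloblasts secrete to clear enamel matrix proteins during enamel maturation.

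The 8 kallikreins lay together on chromosome 7 (mm10), all on the plus strand, from *Klk14* at 43690418 to the end of *Klk5* at 43851181, a stretch of 161 kb in a cluster of 27 kallikrein genes over 539 kb. Because several of these genes moved together and a neighbour among them did not, the 250 bases before the RefSeq transcription start (GRCm38.p6, the assembly of mm10, plus strand) are shown for *Klk7*, *Klk10* and *Klk5*, the 3 kallikreins with the highest RPKM in cKO CLT, and for *Klk8*, which did not follow them. Capitals mark the KLF core (CCACCC, on either strand) and, in *Klk5*, a GATA core on the opposite strand.
Klk7 (chr7:43811044-43811293): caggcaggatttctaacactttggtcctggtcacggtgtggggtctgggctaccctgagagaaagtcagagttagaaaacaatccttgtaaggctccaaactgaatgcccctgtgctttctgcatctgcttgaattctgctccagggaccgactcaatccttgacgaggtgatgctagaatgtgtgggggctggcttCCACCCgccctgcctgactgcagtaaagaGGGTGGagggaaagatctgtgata
Klk10 (chr7:43780804-43781053): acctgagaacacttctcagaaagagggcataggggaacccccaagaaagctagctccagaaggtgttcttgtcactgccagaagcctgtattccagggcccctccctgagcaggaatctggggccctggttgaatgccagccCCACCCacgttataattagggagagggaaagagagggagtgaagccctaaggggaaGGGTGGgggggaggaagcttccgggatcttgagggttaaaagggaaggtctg
Klk5 (chr7:43842019-43842268): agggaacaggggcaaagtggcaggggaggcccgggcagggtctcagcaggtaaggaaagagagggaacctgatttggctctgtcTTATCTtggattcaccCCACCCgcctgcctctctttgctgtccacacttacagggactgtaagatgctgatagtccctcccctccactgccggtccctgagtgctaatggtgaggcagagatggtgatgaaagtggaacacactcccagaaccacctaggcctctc
Klk8 (chr7:43797327-43797576): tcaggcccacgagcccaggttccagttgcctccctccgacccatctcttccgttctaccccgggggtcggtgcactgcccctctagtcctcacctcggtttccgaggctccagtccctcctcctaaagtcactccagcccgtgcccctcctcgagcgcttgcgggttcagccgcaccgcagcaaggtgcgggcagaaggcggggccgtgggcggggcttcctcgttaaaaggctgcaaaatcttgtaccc

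The KLF core stood in the windows of 6 of the 8 kallikreins, *Klk5*, *Klk7*, *Klk10*, *Klk11*, *Klk13* and *Klk14*, and in 28.1% of all 32851 windows of the same length. *Klk7* had it 53 bases before its start and, on the opposite strand, 24 bases before it, and *Klk10* had it at 108 and 52 bases. *Klk13* held 3 copies, while the windows of *Klk6* and *Klk8* held none. Of these, *Klk6* followed *Klk5* in level and *Klk8* did not, and *Klk14*, which had the core, was scarcely detected. The AP-1 letters TGANTCA, the Egr letters GCGNGGGCG, the Grainyhead-like letters AACNGGTT and the letters TATAAA were in no window of the 8 genes, against 6.75%, 4.70%, 1.79% and 12.4% of all windows. The C/EBP letters TTGCNNAA were found for *Klk11* only (9.56% of all windows) and the GATA letters AGATAA for *Klk5* only (9.99%). GC content was 65.2% for *Klk8* and 52.4% for *Klk7*, the latter equal to the median of all windows (52.4%). At the start nearest to that of the gene, the other kallikreins had 53.6% (*Klk14*) to 57.6% (*Klk13*). All motifs were searched on both strands, and a match of letters is a description, not a bound site.

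The deposited values are RPKM (read counts divided by gene length in kilobases and by library size), and 22330512 to 28651106 reads lay on genes in each library. Libraries of the same group differed by a median of 0.0922 to 0.113 on the log2(RPKM + 1) scale in Ctrl CLH, cKO CLH and cKO CLT, but by 0.404 in Ctrl CLT, where 34.6% of genes differed by more than 1.5-fold. The 2 Ctrl CLT libraries therefore stand apart from each other, and the calls that rest on them are given with and without each of them. *Med1* itself was not lower in the CLT libraries labelled cKO (RPKM 9.15 and 8.96) than in those labelled Ctrl (4.83 and 8.71), and it was 7.10 and 7.03 against 7.71 and 9.12 in CLH. The counted reads cover the whole gene and not only the deleted exons, so all directions below are those of the libraries labelled cKO. Dental epithelium markers (9 genes) summed to 84468 and 37375 RPKM in Ctrl CLT but to 24.3 and 19.6 in the libraries labelled cKO CLT, where 5 of the 9 reached an RPKM of 1. Basal epithelium markers summed to 1807 and 1071 in Ctrl CLT, while cKO CLT had 2553 and 2667. In such bulk tissue, fewer cells of a type and less RNA per cell cannot be told apart.

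In CLT, *Klk5*, *Klk6*, *Klk7*, *Klk10*, *Klk11*, *Klk13* and *Spink5* were highest in both libraries labelled cKO. They were present in Ctrl CLT 1 at 28.2% to 41.0% of the cKO CLT mean. In Ctrl CLT 2, *Klk5* and *Klk6* had no read, *Klk7* and *Spink5* had at most 4, and *Klk10*, *Klk11* and *Klk13* were low. *Klk8* was present in every library at an RPKM of 4.07 to 12.4, and *Klk14* was scarcely detected anywhere.

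*Klk7* encodes the chymotrypsin-like enzyme of the stratum corneum, which cuts corneodesmosin and desmocollin 1, and it was the most abundant member in 3 of the 4 CLT libraries, all but Ctrl CLT 2 (chromosome 7, 43811444 to 43816359). The libraries labelled cKO CLT had an RPKM of 359 and 354, Ctrl CLT 1 had 114 and Ctrl CLT 2 had 0.0862, the last from 4 reads. The CLH libraries labelled Ctrl had 0.0499 and 0.0640, from 3 reads each, and those labelled cKO had 0.306 and 0.136, from 18 and 7 reads. The libraries labelled cKO CLT thus stood above all others, Ctrl CLT 1 in between, and Ctrl CLT 2 at the level of CLH.

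*Klk5* encodes a trypsin-like enzyme that can activate itself and the precursors of KLK7 and KLK14 (43842269 to 43851181). Its RPKM was 29.9 and 32.2 in cKO CLT and 10.1 in Ctrl CLT 1. Not a read fell on it in Ctrl CLT 2 or in any of the 4 CLH libraries, which allows up to 3 reads, or an RPKM of 0.0703 to 0.0911. *Klk14*, a further trypsin-like enzyme of the same cascade (43690418 to 43695535), had an RPKM of 0.0562 and 0.173 in cKO CLT, no read in either Ctrl CLT library, 0.583 and 0.533 in cKO CLH, and 0.229 and 0 in Ctrl CLH. The highest of these values rests on 25 reads, and *Klk14* was the only member that did not reach an RPKM of 1 in 2 libraries, so it was not tested. Of its 50-base stretches, 21.0% also occur in transcripts of other genes, and its few reads are uncertain.

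*Klk6*, first known as neurosin from the nervous system and also made by keratinocytes (43824544 to 43832027), followed *Klk5*, with an RPKM of 24.4 and 26.2 in cKO CLT, 9.02 in Ctrl CLT 1 and no read in the other 5 libraries. *Klk8*, or neuropsin (43797577 to 43803822), did not follow it. Its RPKM was 9.69 and 11.4 in cKO CLT and 12.4 and 4.07 in Ctrl CLT. In CLH the libraries labelled cKO had 4.93 and 7.22 and those labelled Ctrl 5.93 and 4.25. The highest library was thus Ctrl CLT 1, and the genotypes overlapped in both regions. An antisense transcript, *2310002F09Rik*, shares 21.7% of the 50-base stretches of *Klk8*, and without a stated strand setting reads of both cannot be told apart.

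*Klk10*, an atypical member of weak or no known protease activity, was the second most abundant member in cKO CLT and the most abundant in all 4 CLH libraries (43781054 to 43785410). Its RPKM was 88.8 and 94.4 in cKO CLT and 32.1 and 3.19 in Ctrl CLT. In CLH the libraries labelled cKO had 7.29 and 7.62 and those labelled Ctrl 8.18 and 6.05. Ctrl CLT 2 was thus below all CLH libraries. The same order held at lower levels for *Klk11* (43774617 to 43779262), which is trypsin-like, with 11.1 and 12.2 in cKO CLT, 4.55 and 0.623 in Ctrl CLT, and 1.78 and 1.80 (labelled cKO) and 1.98 and 1.51 (Ctrl) in CLH. *Klk13* (43712567 to 43726758) had 5.73 and 6.85 in cKO CLT, 2.58 and 0.218 in Ctrl CLT, and 1.09 and 0.491 (labelled cKO) and 0.759 and 0.468 (Ctrl) in CLH. For both genes Ctrl CLT 2 was the lowest of the 8 libraries.

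*Spink5* encodes LEKTI, a chain of Kazal-type inhibitor domains that blocks KLK5, KLK7 and KLK14 (chromosome 18, 43963241 to 44022487). Its RPKM was 48.9 and 45.1 in cKO CLT, 13.2 in Ctrl CLT 1 and 0.00789 in Ctrl CLT 2, from a single read. The CLH libraries labelled cKO had 0.597 and 0.334, and those labelled Ctrl 0.390 and 0.102. The inhibitor therefore had the same order of libraries in CLT as *Klk7*, with the groups overlapping in CLH.

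**Figure D1:**
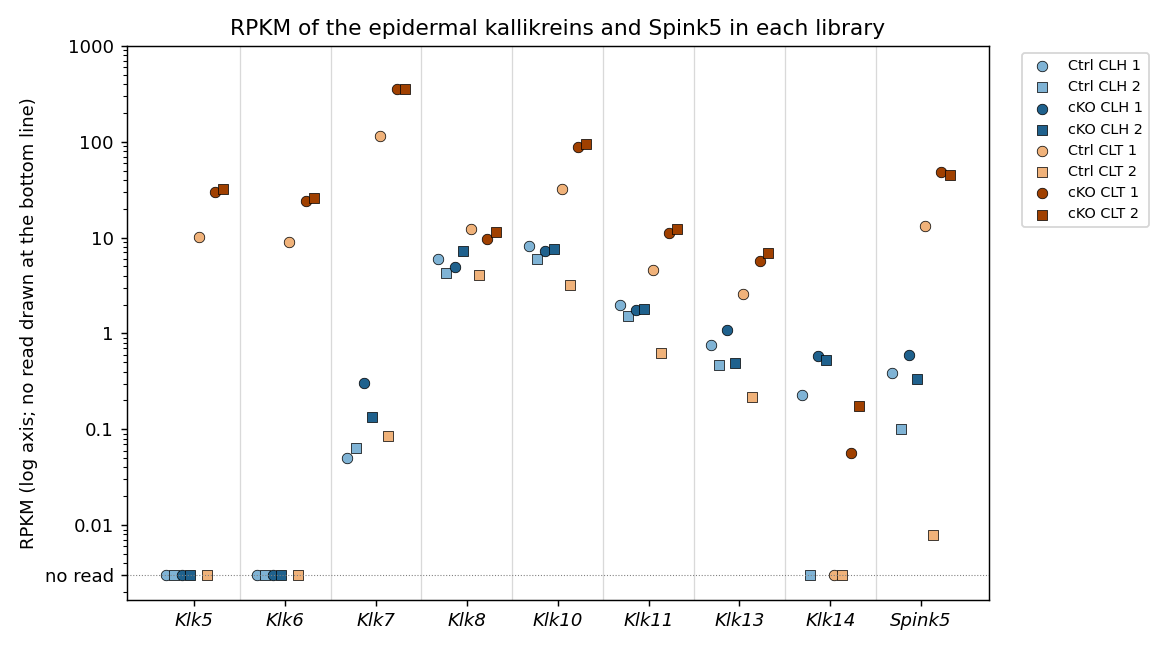
RPKM (log axis) of the 8 epidermal kallikreins and *Spink5* in each of the 8 libraries, with circles for the first and squares for the second library of a group and values without a read drawn at the bottom line. In cKO CLT, *Klk7* stood at 359 and 354, and the Ctrl CLT libraries lie far apart for every gene drawn except *Klk8* (12.4 and 4.07) and *Klk14*.

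Of the 9 genes, 8 passed the filter on low values. *Klk5*, *Klk6*, *Klk7* and *Spink5* reached an RPKM of 1 only in cKO CLT and Ctrl CLT 1 and so passed through the libraries in which they were high. Elsewhere *Klk13* reached it only in cKO CLH 1 (1.09), too few libraries for the filter, so it too passed through those libraries. The counts and medians below therefore describe the set and lend no support of their own. Of the 8 genes tested between cKO and Ctrl in CLT, none passed the threshold (limma on log2(RPKM + 1), Benjamini-Hochberg adjusted p under 0.05), and 1.75% of all 14148 genes tested did. The unadjusted p was under 0.05 for 3 of the 8, *Klk10*, *Klk11* and *Klk13*, as it was for 36.2% of all genes, and a voom fit on the recovered reads also called 0, with 3 at an unadjusted p under 0.05 (34.2% of all genes). The log2 fold change was 5.0 for *Klk7* (SE 2.37, adjusted p = 0.208), 3.66 for *Spink5* (SE 1.35, adjusted p = 0.142), 3.27 for *Klk5* (SE 1.23, adjusted p = 0.147) and 2.97 for *Klk10* (SE 1.06, adjusted p = 0.134, limma). It was 3.05 for *Klk6*, 2.08 for *Klk11* and 1.80 for *Klk13*, with adjusted p of 0.152, 0.112 and 0.116 in the same limma test. *Klk8* had 0.48 (SE 0.52, adjusted p = 0.528, limma). The median of the 7 kallikreins tested was 2.97, beside -0.01 for all genes tested. Both libraries labelled cKO lay above both Ctrl libraries for 7 of the 8 genes tested, all but *Klk8*, as they did for 37.2% of all genes.

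These folds average 2 unlike Ctrl libraries. Against Ctrl CLT 1 alone, the RPKM mean of cKO CLT was higher by 3.55-fold for *Spink5*, 3.12-fold for *Klk7*, 3.08-fold for *Klk5*, 2.85-fold for *Klk10*, 2.81-fold for *Klk6*, 2.56-fold for *Klk11* and 2.44-fold for *Klk13*, and it was 0.851 of that library for *Klk8*. Against Ctrl CLT 2 alone, it was higher by 4138-fold for *Klk7* (counting interval 1616 to 15188), by 5960-fold for *Spink5* (1070 to 235388, from 1 read), by at least 341-fold for *Klk5* and by at least 316-fold for *Klk6*. The smaller steps against that library were 28.8-fold for *Klk13*, 28.7-fold for *Klk10*, 18.7-fold for *Klk11* and 2.59-fold for *Klk8*. Intervals and floors cover counting error only, and the bounds against no read take 3 reads in that library.

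Without Ctrl CLT 2, limma called 7 of the 8 genes higher in the libraries labelled cKO, where 29.1% of all genes were called higher. The log2 fold changes then ran from 1.02 for *Klk13* (adjusted p = 0.00334) to 1.75 for *Spink5* (adjusted p = 0.000364), and *Klk8* turned to -0.22 (adjusted p = 0.234). Without Ctrl CLT 1, all 8 were called higher, beside 31.4% of all genes, from 1.19 for *Klk8* (adjusted p = 0.00104) to 8.36 for *Klk7* (adjusted p = 1.5e-06). The lone Ctrl library in such a fit is assumed to vary like the cKO pair. With all 8 libraries in 1 fit, 5 of the 7 kallikreins and *Spink5* were called higher, beside 23.7% of all genes.

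**Figure D2:**
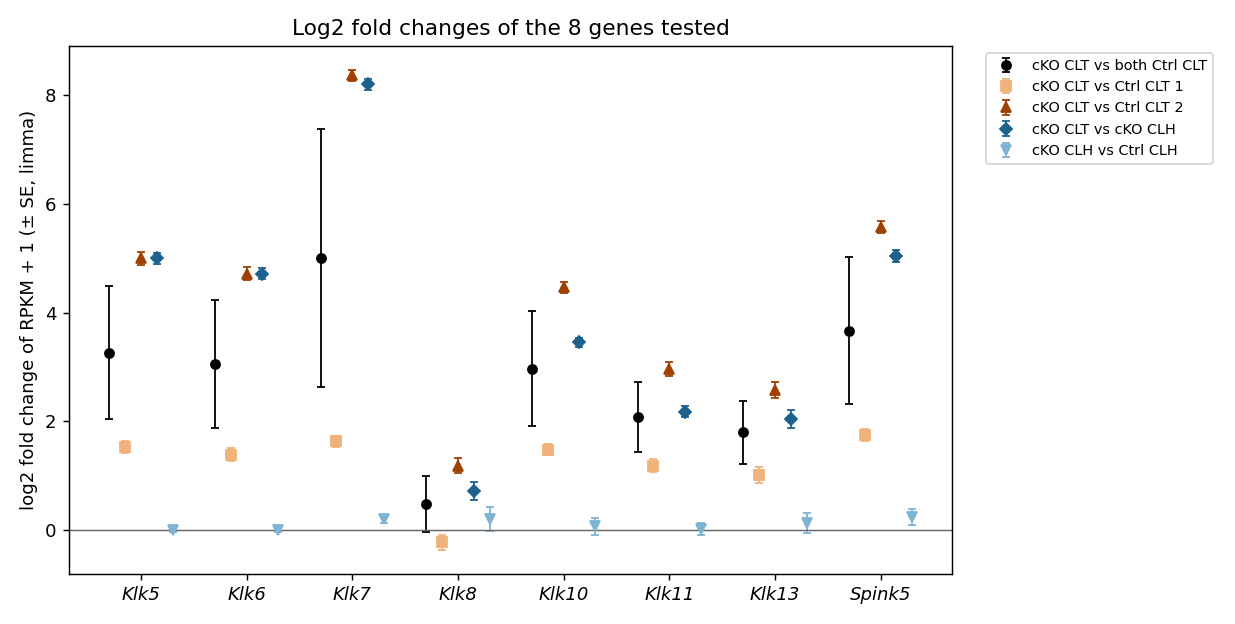
Log2 fold changes of RPKM + 1 with their SE from limma for the 8 genes tested, in 5 comparisons marked by colour and shape. The bars against both Ctrl CLT libraries are long (SE 2.37 for *Klk7*), while against either Ctrl CLT library alone and against cKO CLH they are short and lie above 0 for every gene except *Klk8* against Ctrl CLT 1 (-0.22).

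In CLH, 0 of the 8 genes tested passed the limma threshold between cKO and Ctrl, as did 0% of all 14148 genes. *Klk5* and *Klk6* had no read in any CLH library, so they could not be called here and add no change to the median below. At an unadjusted p under 0.05 there was 1, *Klk7* (log2 fold change 0.20, SE 0.08, adjusted p = 0.689), beside 7.26% of all genes, and the voom fit called 0 with 2 at that level (8.41%). The 7 kallikreins tested had a median log2 fold change of 0.07, beside -0.01 for all genes, and *Spink5* had 0.24 (SE 0.15, adjusted p = 0.729, limma). Of the 8 genes, *Klk7* alone had both libraries labelled cKO above both Ctrl libraries, which held for 19.9% of all genes. At 3 to 18 reads a library its difference lies near the detection limit.

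Within the libraries labelled cKO, all 8 genes tested were higher in CLT than in CLH (limma, adjusted p under 0.05), where 28.9% of all genes were called higher and 45.1% lower. This comparison uses no Ctrl library and treats the libraries as unpaired, as no source used here ties the replicate numbers to litters. *Klk7* was higher by 1617-fold in mean RPKM (log2 fold change 8.20, SE 0.10, adjusted p = 1.4e-10), *Spink5* by 101-fold (5.04, SE 0.12, adjusted p = 4.3e-09, limma), *Klk10* by 12.3-fold, *Klk13* by 7.96-fold and *Klk11* by 6.52-fold. *Klk5* was higher by at least 404-fold and *Klk6* by at least 375-fold, their 2 cKO CLH libraries being without a read (3 reads per library taken as the floor). *Klk8* was higher by 1.74-fold (0.72, SE 0.16, adjusted p = 0.00326, limma), and its call was lost in the fit of all 8 libraries (adjusted p = 0.214, with 22.7% of all genes called higher) and without cKO CLT 2 (adjusted p = 0.101). *Klk14*, below the filter, went the other way, with 45 reads in the cKO CLH libraries and 8 in cKO CLT. On median-of-ratios scaling, which moved the median of all genes from -0.18 to 0.03, all genes split into 5323 higher and 4854 lower in place of 4084 and 6384, and all 8 members stayed called higher.

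Between CLT and CLH in Ctrl, limma called 0 of the 8 genes, beside 0.00707% of all genes, with 0 at an unadjusted p under 0.05 and likewise 0 in the voom fit. The log2 fold changes ran from 0.13 for *Klk11* (SE 0.66) to 3.40 for *Klk7* (SE 2.39, adjusted p = 0.545, limma). Both Ctrl CLT libraries lay above both CLH libraries for 1 of the 8, *Klk7*, as for 15.2% of all genes, and there Ctrl CLT 2 exceeded CLH by 1 read. *Klk5* and *Klk6* had no read in Ctrl CLT 2 or in CLH, so a fit without Ctrl CLT 1 could not call them. Without Ctrl CLT 2 all 8 genes were called higher in CLT (18.4% of all genes), and without Ctrl CLT 1 none was (1.91%).

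The difference of the cKO effect between the regions was called for 0 of the 8 genes (limma interaction over all 8 libraries), beside 17.6% of all genes. An unadjusted p under 0.05 was found for 1, *Klk11* (interaction log2 2.05, SE 0.74, adjusted p = 0.0978), beside 38.0% of all genes, and the voom fit gave 0 and 1 (34.4%). *Klk7* had an interaction of 4.79 (SE 2.70, adjusted p = 0.237), *Spink5* of 3.43 (SE 1.55, adjusted p = 0.159) and *Klk8* of 0.27 (adjusted p = 0.777, limma). Without Ctrl CLT 1 all 8 were called (28.5% of all genes called higher) and without Ctrl CLT 2 7 of them (26.6%). The CLT comparison, the interaction and the Ctrl regional comparison share the same Ctrl CLT libraries.

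Along with the level, the make-up of the kallikrein RPKM differed between libraries. Summed over the 8 kallikreins, RPKM was 529 and 537 in cKO CLT and 185 and 8.19 in Ctrl CLT, and the CLH libraries had 16.0 and 17.8 under the cKO label and 17.1 and 12.3 under the Ctrl label. In the 4 CLH libraries *Klk10* made up 42.8% to 49.0% of this sum and *Klk8* 30.9% to 40.6%. In cKO CLT *Klk7* made up 67.9% and 65.9%, *Klk10* 16.8% and 17.6%, and *Klk8* only 1.83% and 2.13%. Ctrl CLT 1 had the make-up of cKO CLT, with 61.8% from *Klk7* and 17.4% from *Klk10*. Ctrl CLT 2 had that of CLH, with 49.7% from *Klk8*, 39.0% from *Klk10* and 1.05% from *Klk7*.

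**Figure D3:**
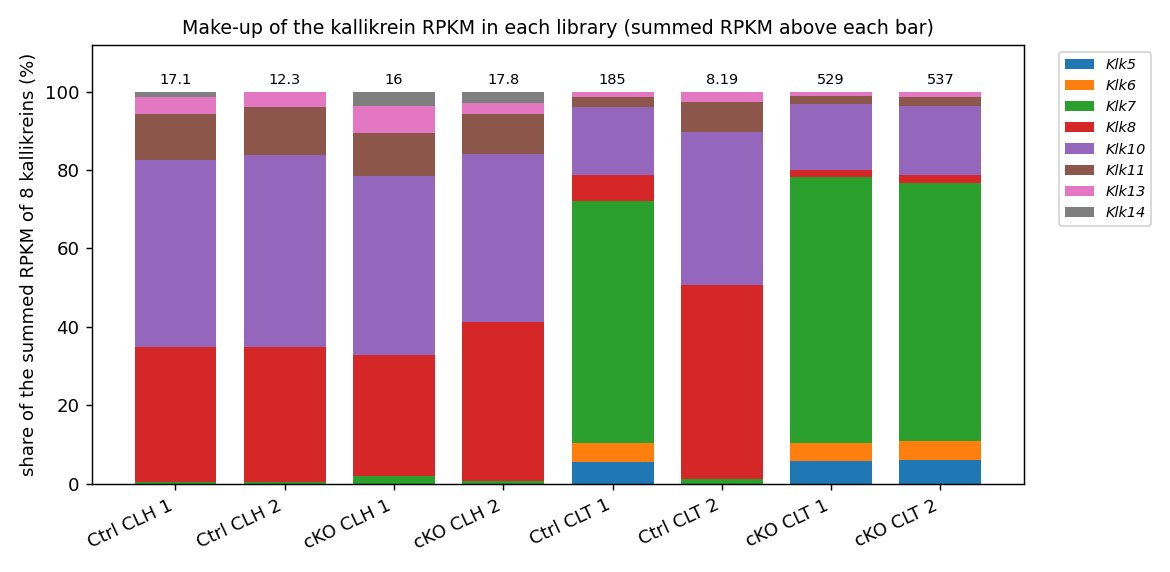
Share of each kallikrein in the summed RPKM of the 8 genes (%, stacked bars from 0 to 100) in each library, with the sum in RPKM above each bar. *Klk7* fills 61.8% to 67.9% of the bars of Ctrl CLT 1 and both cKO CLT libraries and under 2% of the other 5.

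The RNA of the proteases and of the inhibitor was compared as the ratio of the summed kallikrein RPKM to *Spink5* RPKM, both scaled per length. This ratio of RNA does not measure active protease or inhibitor. It was 10.8 and 11.9 in cKO CLT and 14.0 in Ctrl CLT 1. In CLH, where *Spink5* had 13 to 96 reads, the Ctrl libraries had 43.9 and 122 and those labelled cKO 26.8 and 53.3, and in Ctrl CLT 2 it was 1038, on the single *Spink5* read. For the sum of *Klk5* and *Klk7* alone, the ratio to *Spink5* was 7.96 and 8.56 in cKO CLT and 9.40 in Ctrl CLT 1. The libraries that held *Klk7* thus held *Spink5* in a narrow range of proportion to it, while the CLH libraries had *Klk10* and *Klk8* with little of the inhibitor.

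Within the gene cluster, *Klk4* differed between cKO and Ctrl in CLT in the direction opposite to *Klk5*, *Klk6*, *Klk7*, *Klk10*, *Klk11* and *Klk13*. It starts 30.0 kb beyond the end of *Klk5*, and Ctrl CLT held 187 and 206 RPKM of it, against 0.231 and 0.119 in both libraries labelled cKO CLT (limma, log2 fold change -7.39 with SE 0.16, adjusted p = 0.00485). Its CLH values were 1.46 and 1.65 in Ctrl and 0.886 and 1.48 in cKO, and the interaction was called (-7.15, SE 0.24, adjusted p = 0.000155). In CLT it was also called lower with Ctrl CLT 1 left out (-7.46) and with Ctrl CLT 2 left out (-7.32). *Klk4* was also the only gene of all those tested that was called between CLT and CLH in Ctrl (6.27, adjusted p = 0.0207, limma), a call that was lost without Ctrl CLH 1 (adjusted p = 0.0682), without Ctrl CLH 2 (adjusted p = 0.0616) and in the voom fit (adjusted p = 0.14). Unlike the epidermal members, it was alike in both Ctrl CLT libraries. On its other side, *Klk15* had 2.61 and 3.45 in cKO CLT, 1.21 and 0 in Ctrl CLT and at most 0.0387 in CLH. *Klk9* had 1.64 and 2.54 in cKO CLT against 0.973 and 0.229 in Ctrl CLT, and *Klk12*, untested, 0.959 and 1.02 against 0.404 and 0. The 14 *Klk1b* genes had at most 2 reads in a library, and *Klk1* at most 5. Of the 5 further kallikreins outside the *Klk1b* group, 3 were tested, and in CLT the call of *Klk4* as lower was the only one, while *Klk9* and *Klk15* were called higher with either Ctrl CLT library left out and in the fit of all 8 libraries.

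**Figure D4:**
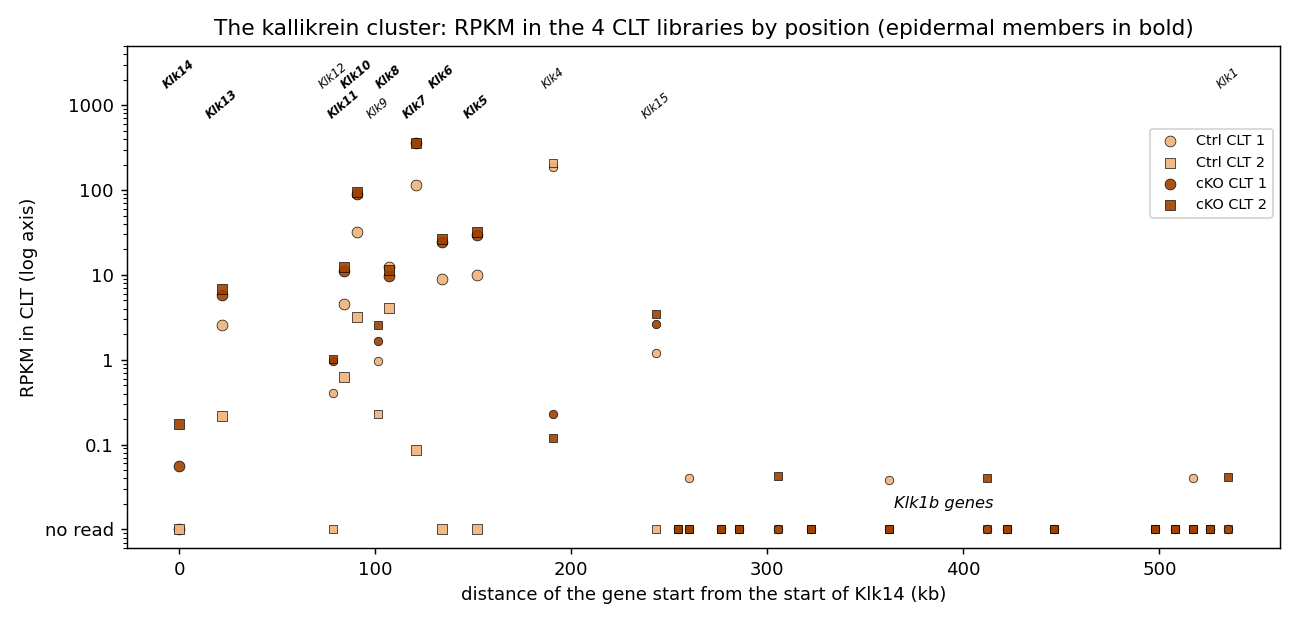
RPKM (log axis, no read drawn at the bottom) in the 4 CLT libraries against the distance of each kallikrein gene's start from that of *Klk14* in kb, with the epidermal members in bold. *Klk4* is at 187 and 206 in Ctrl CLT and below 1 in cKO CLT, while its neighbours *Klk5* and *Klk15* are higher in cKO CLT than in either Ctrl CLT library.

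The pathway lists that follow are read against all 14148 genes tested, of which 1.75% were called between cKO and Ctrl in CLT and 36.2% had an unadjusted p under 0.05. In that comparison limma called 31.4% of genes higher and 38.1% lower without Ctrl CLT 1, 29.1% higher and 23.0% lower without Ctrl CLT 2, and 23.7% higher and 20.0% lower with all 8 libraries in 1 fit. Within cKO, 28.9% were higher and 45.1% lower in CLT than in CLH. Among the list genes, *Tmprss4*, *Cst6*, *Spink12*, *Serpina12*, *Cdsn*, *Dsc1*, *Dsg1b*, *Casp14* and *Tgm3* reached an RPKM of 1 only in cKO CLT and Ctrl CLT 1. The same held for *Klk15* above, and *Klk9* reached it only in cKO CLT. These genes passed the filter through the libraries in which they were high, so the list counts and medians are a description and lend no support of their own.

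Enzymes that activate kallikreins or act beside them were read as a list of 7 genes, of which 6 were tested. In cKO CLT against Ctrl CLT 0 were called by limma (5 at an unadjusted p under 0.05), and the median log2 fold change was 1.94, beside -0.01 for all genes. Without Ctrl CLT 1, 4 were called higher and 1 lower, without Ctrl CLT 2 and with all 8 libraries 5 and 1. Within cKO, 5 were higher in CLT than in CLH and 1 was lower. *St14*, which encodes matriptase, had an RPKM of 70.7 and 78.0 in cKO CLT, 36.2 and 15.8 in Ctrl CLT and at most 20.3 in CLH (log2 fold change of CLT against CLH in cKO 1.84). *Prss8*, prostasin, had 33.7 and 35.7 against 13.2 and 2.75 (3.01 in the same contrast), and the transmembrane proteases *Tmprss13* and *Tmprss4* rose by 3.89 and 3.52 and the urokinase gene *Plau* by 1.01. *Hpn*, hepsin, was lower in CLT than in CLH within cKO (-1.88), with 0.565 and 0.421 in cKO CLT against 2.54 and 2.69 in Ctrl CLT. *Mep1b*, meprin beta, stayed below 0.05 in all libraries and was not tested.

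Of the other protease inhibitors, 8 of 9 listed genes were in the table and 7 were tested. None was called between cKO and Ctrl in CLT by limma (3 at an unadjusted p under 0.05, median log2 fold change 1.63). Without Ctrl CLT 1, 6 were called higher and 1 lower, without Ctrl CLT 2 4 and 1, and with all 8 libraries 3 and 1. Within cKO 5 were higher and 2 lower in CLT than in CLH. *Cst6*, cystatin M/E, had an RPKM of 173 and 202 in cKO CLT, 71.6 and 0.0761 in Ctrl CLT and at most 0.217 in CLH (log2 fold change within cKO 7.31). *Spink12*, a Kazal-type relative of *Spink5*, had 6.93 and 6.30 in cKO CLT, 2.19 in Ctrl CLT 1 and no read elsewhere (2.93). *Serpina12*, vaspin, which inhibits KLK7, had 4.41 and 3.66 against 1.51 and 0.0510 (2.32). *Spint1* and *Spint2*, inhibitors of matriptase, rose within cKO by 2.73 and 0.72, while *Serpinb6a* and *Slpi* had -0.28 and -0.65. The calls of *Spint2*, *Serpinb6a* and *Slpi* were lost in the fit of all 8 libraries, which called 4 higher and 0 lower, and those of *Serpinb6a* and *Slpi* also in 3 of the 4 fits that left out a library. Ctrl CLT 1 again held the epidermal inhibitors *Cst6*, *Spink12* and *Serpina12*, and Ctrl CLT 2 had 8 reads, none and 5 of them.

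The proteins that these enzymes cut were measured too, with 6 of 7 listed genes in the table and tested. *Cdsn*, corneodesmosin, had an RPKM of 175 and 197 in cKO CLT, 53.6 and 0.0843 in Ctrl CLT and 0.141 to 0.697 in CLH. *Dsc1*, desmocollin 1, had 87.5 and 84.3 in cKO CLT against 17.8 and 0.0199 in Ctrl CLT. *Dsg1a* had 71.1 and 62.5 against 20.4 and 4.18, and *Dsg1b* 5.09 and 5.06 against 2.22 and 0.983, both encoding desmoglein 1. *F2rl1*, the receptor PAR2 that kallikreins can activate, had 33.5 and 30.5 against 8.89 and 1.51. These 5 had log2 fold changes of 4.60, 4.31, 2.68, 1.27 and 2.73 between cKO and Ctrl in CLT, and 0 were called by limma (adjusted p of 0.182, 0.128, 0.0966, 0.0831 and 0.0924). All 5 were called higher without Ctrl CLT 1 and without Ctrl CLT 2, and 4 of them, all but *Cdsn*, with all 8 libraries in 1 fit, and *Camp* was called lower in each of these fits. All 5 were called higher in CLT than in CLH within cKO, by 6.90, 6.07, 3.76, 1.67 and 3.47. *Camp*, whose cathelicidin product is cut by KLK5 and KLK7 and which is abundant in neutrophils, was lower there (-4.74), with 0.298 and 0.184 in cKO CLT against 19.7 and 4.52 in Ctrl CLT.

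A further list held enzymes of cornification other than kallikreins and, with *Elane*, a neutrophil protease, and 7 of its genes were measured. Of these, 0 were called between cKO and Ctrl in CLT by limma (3 at an unadjusted p under 0.05, median log2 fold change 1.25). Without Ctrl CLT 1, and likewise without Ctrl CLT 2, 5 were called higher and 1 lower, and with all 8 libraries 4 higher and 0 lower. Of the 7, 6 were higher and 1 lower in CLT than in CLH within cKO. *Asprv1*, a protease that processes filaggrin, had an RPKM of 387 and 421 in cKO CLT, 139 and 0.540 in Ctrl CLT and at most 2.66 in CLH (log2 fold change within cKO 7.0). *Tgm3* rose by 5.45, *Casp14* by 3.57, *Tgm1* by 1.59, *Ctsd* by 1.56 and *Ctsl* by 0.69, and *Elane*, neutrophil elastase, fell by 1.36 in that contrast. The lysosomal cathepsins *Ctsd* and *Ctsl*, present in all libraries, had the smallest rises of the 6. The rise of *Ctsd* (1.56) hardly differed from that of *Tgm1* (1.59), which was also present in all libraries, with an RPKM of at least 12.3.

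The levels of the members went with those of some marker lists and not of others. Relative to the mean of cKO CLT, Ctrl CLT 1 held 28.2% of *Spink5*, 32.1% of *Klk7*, 32.5% of *Klk5*, 35.1% of *Klk10*, 35.7% of *Klk6*, 39.0% of *Klk11* and 41.0% of *Klk13*, and 118% of *Klk8*. In the same library 9 cornified epidermis markers summed to 35.0% of cKO CLT, 8 hair markers to 32.0%, 6 sebaceous markers to 34.4%, 5 melanocyte markers to 32.6% and 6 skeletal muscle markers to 34.7%. Neural markers summed to 36.8%, oral to 39.7%, basal epithelium to 69.2%, mesenchyme to 74.8%, salivary to 79.1%, endothelial to 104%, leukocyte to 145% and erythroid to 146%. Among oral markers, *Krt6a*, *Krt16* and *Krt36* were higher in cKO CLT than in both Ctrl CLT libraries, *Krt76* was lower, and *Krt4* and *Krt13* overlapped. Of all genes tested, 7.08% lay between 28.2% and 41.0%, the lowest and highest of the members other than *Klk8* and *Klk14*. Ctrl CLT 2 held 0.426% of the cornified, 0.113% of the hair, 13.6% of the sebaceous, 2.51% of the melanocyte and 2.62% of the muscle sums. Cornified markers summed to 7.88 to 23.4 RPKM in the CLH libraries, Ctrl CLT had 516 and 6.27, and cKO CLT had 1443 and 1504, all 9 reaching an RPKM of 1 in Ctrl CLT 1 and cKO CLT and 2 in Ctrl CLT 2. Hair markers summed to 10189 and 11220 in cKO CLT, muscle markers to 1807 and 1987, and bone and odontoblast markers to 378 and 472 against 2167 and 2533 in Ctrl CLT. All 6 bone and odontoblast markers reached an RPKM of 1 in Ctrl CLT, but in cKO CLT only 1 did, *Col1a1* (mean 424). The mean of *Dspp* was 0.159 in cKO CLT against 594 in Ctrl CLT, and that of *Bglap* 0.549 against 444. The part of skin, hair, muscle or other tissue in the kallikrein levels was not tested.

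Set against *Krt10*, a keratin of differentiating epidermis, the kallikrein sum hardly differed among the 3 libraries with *Klk7*, at 129% and 128% of *Krt10* RPKM in cKO CLT and 134% in Ctrl CLT 1. *Klk7* alone was 87.8% and 84.4% of *Krt10* in cKO CLT and 82.7% in Ctrl CLT 1. In the 5 other libraries the kallikrein sum was 144% to 302% of *Krt10*, and *Klk7* 0.696% to 3.04%. Set against *Krt14*, a keratin of basal epithelium present in all libraries, the sum was 94.9% and 82.8% in cKO CLT, 34.1% and 2.97% in Ctrl CLT and 6.94% to 8.74% in CLH.

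**Figure D5:**
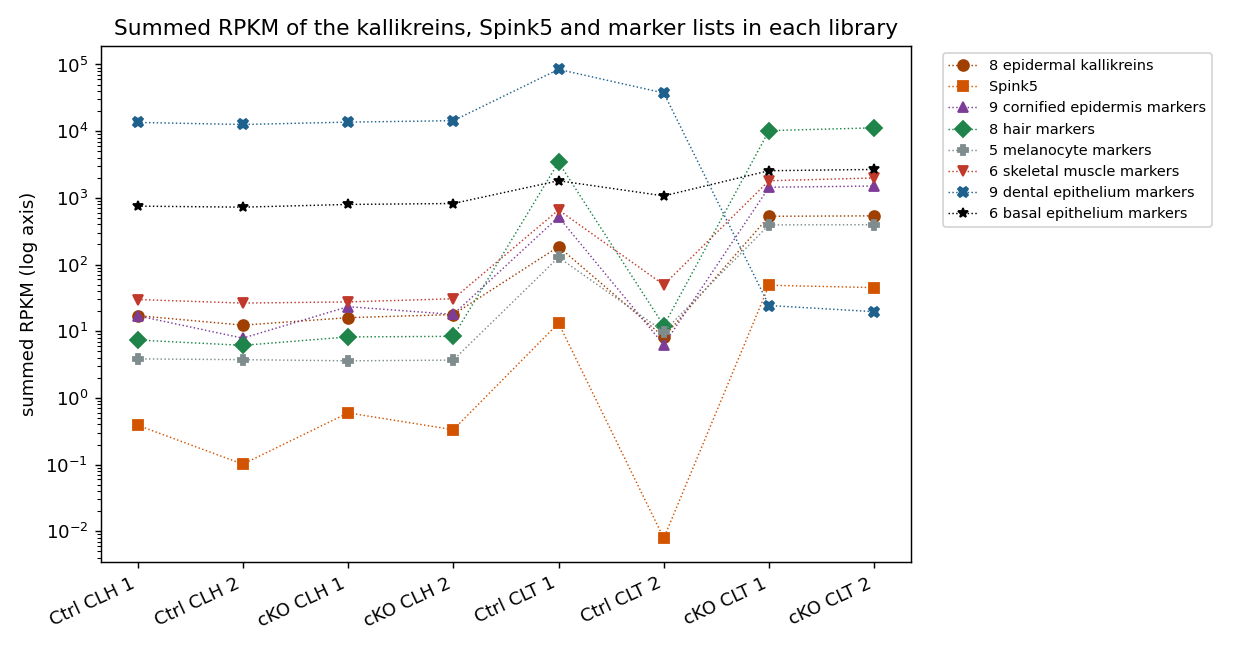
Summed RPKM (log axis) of the 8 kallikreins, *Spink5* and 6 marker lists in each of the 8 libraries, with dotted lines drawn only to guide the eye. Kallikreins, *Spink5* and the cornified, hair, melanocyte and muscle lists are high in both cKO CLT libraries and in Ctrl CLT 1, while dental epithelium markers are at 24.3 and 19.6 in cKO CLT.

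Over the 8 libraries, log2(RPKM + 1) of *Klk5*, *Klk6*, *Klk7*, *Klk10*, *Klk11*, *Klk13* and *Spink5* had Pearson's r of 0.947 to 0.99997 in all 21 pairs. *Klk8* had 0.832 to 0.883 with these genes, and *Klk4* had -0.379 (with *Klk11*) to -0.0699 (with *Klk7*). The genes most like the kallikrein sum among those tested were *Tmem40*, *Gng13*, *Cryba4*, *Lor* (loricrin) and *Cldn4* (claudin 4), all with r of 0.9975 to 0.9986, and 244 genes exceeded 0.99. For *Spink5* they were *Krt1*, *Dsc1*, *Krt82* (a hair cuticle keratin), *Cma1* (a mast cell chymase) and *Il1f5*, with r of 0.9988 to 0.9996, and 462 genes exceeded 0.99. These values describe 8 libraries of which 3 hold nearly all of the signal, and they share those libraries' tissue and depth.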

How the data were processed

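RNA-seq of 8 libraries (4 groups of 2, taken from the sample labels) was analysed. Per the study's methods and the submitters' processing notes, the authors trimmed reads (Trim Galore 0.4.3.1), aligned them to mm10 (STAR 2.6.0b-1), counted them per gene (featureCounts 1.6.3) and deposited RPKM values; annotation, strand setting and the RPKM total are not given in the sources used here. RPKM times gene length came out as whole reads for 100.0% of values checked (tolerance 0.02 reads, values up to 1000 reads). The library sizes that the RPKM values imply were 26591612 to 34420181 reads. Genes with RPKM of at least 1 in at least 2 libraries (14148) were tested with limma 3.58.1 (R 4.3.3, variance trend) on log2(RPKM + 1), each comparison within its own 4 libraries, which understates changes of low genes. The study describes 2 litters with CL tissues pooled in each group, and which litter gave which library is not given in the sources used here. The members, lists and named genes (all members; list genes past the threshold; the 5 most alike) were chosen with earlier results of these data known. Names on more than 1 row (26) were not used. Neighbouring genes and positions came from GENCODE M21 and the table. The fits were run on simulated data in which all libraries varied alike, so the simulation does not cover the wide spread between the Ctrl CLT libraries. No per-sample column was left unused.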

Additional observations from a re-analysis of the deposited data

Results flagged for a closer look

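Every group held 2 libraries, so no single library could be tested as lying apart from its group. The cKO effect differed between CLT and CLH, as an interaction called by limma over all 8 libraries, for 4 of the 29 genes tested in the lists of other kallikreins, activators, inhibitors, substrates and cornification enzymes (13.8%, beside 17.6% of all genes). The log2 difference of the effects (CLT minus CLH) was -7.15 for *Klk4* (adjusted p = 0.000155), -1.39 for *Hpn* (adjusted p = 0.0119), -3.59 for *Camp* (adjusted p = 0.0359) and 1.25 for *Dsg1b* (adjusted p = 0.0482). All 4 were also called without Ctrl CLT 1 and without Ctrl CLT 2. None of the epidermal kallikreins nor *Spink5* was among them. For 3 genes the interaction missed the limma threshold, but the groups did not overlap, with cKO on opposite sides of Ctrl in the 2 regions. *Tmprss13* (3.01, adjusted p = 0.0894) and *F2rl1* (2.92, adjusted p = 0.0547) were higher under the cKO label in CLT and lower in CLH. *Elane* (-0.94, adjusted p = 0.12, limma) was lower in CLT and higher in CLH. In CLH the nearest libraries of the groups lay close. *Tmprss13* had an RPKM of 1.12 and 1.06 under the cKO label against 1.18 and 1.64 in Ctrl. *F2rl1* had 2.10 and 1.87 against 2.54 and 2.295, and *Elane* 1.55 and 1.58 against 1.45 and 0.849. When Ctrl CLT 1 was dropped, the interaction was 4.29 for *Tmprss13*, 3.91 for *F2rl1* and -0.58 for *Elane*. When Ctrl CLT 2 was dropped, it was 1.74, 1.93 and -1.30. The share of all genes with such opposite non-overlap was not computed, so these 3 genes are a description only. In a single direction, both libraries labelled cKO lay above both Ctrl libraries for 37.2% of all genes in CLT and 19.9% in CLH.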

How the results depend on the processing

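Without the libraries in turn, limma called 0 to 8 members between cKO and Ctrl in CLT (8 without Ctrl CLT 1, 7 without Ctrl CLT 2), 0 to 8 in the interaction, 0 to 8 between CLT and CLH in Ctrl, 7 to 8 between CLT and CLH in cKO and 0 between cKO and Ctrl in CLH. In CLT, 6 members were called with all 8 libraries in 1 fit. A replicate block called 5 there, beside 6.28% of all genes called higher. At an unadjusted p under 0.05 the block had 7, beside 2191 genes higher and 2012 lower of all 14148. A limma fit with crossed numbers, added after the data were seen, called 0, beside 0 of all genes higher and 9 lower. That fit had 6 at an unadjusted p under 0.05, beside 2615 genes higher and 2217 lower. The study describes 2 litters, but no source used here ties the replicate numbers to them. Same-numbered libraries had correlated deviations of -0.192 between genotypes in CLT, 0.0656 in CLH, 0.195 between regions in Ctrl and 0.307 in cKO. With only 2 numbers, these values cannot show whether the samples were paired. The numbers were not taken to pair the samples, and the block changed no other count of calls. Neither pseudocounts of 0.1 and 0.5, median-of-ratios scaling, no filter or a filter on the mean, no variance trend nor voom moved a count of members called, except that without a filter 9 were called between CLT and CLH in cKO, *Klk14* being the added one and lower in CLT. The cause was not tested. Leaving out a library turned the direction of single uncalled values. Between CLT and CLH in Ctrl the log2 fold change ran from -0.94 to 2.04 for *Klk10*, -0.76 to 1.02 for *Klk11* (-0.0008 with a pseudocount of 0.1), -0.40 to 1.16 for *Klk13*, -0.25 to 1.15 for *Klk8* and -0.30 to 3.52 for *Spink5*. Between cKO and Ctrl in CLH it ran from -0.12 to 0.26 for *Klk10*, -0.10 to 0.15 for *Klk11*, -0.11 to 0.38 for *Klk13* and -0.0248 to 0.45 for *Klk8*. For *Klk8* it ran from -0.22 to 1.19 between cKO and Ctrl in CLT and from -0.43 to 0.97 in the interaction. Depth limits *Klk14*, *Klk7* in CLH and *Spink5* in Ctrl CLT 2, which rest on a few reads.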
